A study of Mus musculus with 5 samples.

Results

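The genes described are 34 genes of cholesterol and fatty acid synthesis, chosen by name for their place in these pathways, out of 18327 genes that could be named on the array. They comprised 7 genes of the mevalonate pathway, 10 genes of the steps from squalene synthesis to the finished sterol, 5 genes of the sterol regulatory element binding proteins (SREBPs) and their regulators, 6 genes that supply or build fatty acids, and 6 genes that elongate or desaturate them. Gene expression was measured on 5 Agilent mouse arrays, with 1 array per condition, to follow a hepatoma line through fusion with embryonic stem (ES) cells and later differentiation.

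ES was the E14 line, which carried RFP and hygromycin resistance. Hepa1-6 was a mouse hepatoma line, which carried GFP and neomycin resistance. EHe was the undifferentiated hybrid of these parents, selected with both drugs. The paper describes nearly all its hybrid lines as near-tetraploid, and whether the array sample was 1 clone is not stated in the sources used here. EHeD7 and EHeD14 were EHe differentiated in vitro for 7 and 14 days. Per the labels, ES and EHe were grown with 10% knock-out serum replacement, 1% fetal serum and leukemia inhibitory factor at 1000 units/ml. The differentiated hybrids were kept as a monolayer in high-glucose medium (15% fetal calf serum), and the hepatoma line in the same kind of medium with 10%. The paper describes differentiation through embryoid bodies without naming the array samples. The medium or its serum changed together with the cells in each comparison other than EHe against ES, and its part in the results was not tested.

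Cholesterol is built from acetyl-CoA through mevalonate, isoprenoid diphosphates, squalene and lanosterol, and fatty acids are built from the same acetyl-CoA through malonyl-CoA. SREBPs are held in the endoplasmic reticulum by INSIG proteins when sterols are plentiful and are escorted by SCAP to the Golgi, where they are cut, when sterols are scarce. The released part then enters the nucleus and raises transcription of most of the enzymes described here, and liver is a main site of both pathways in the animal.

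Of the 34 genes, 28 had an entry in the table of RefSeq promoters (build GRCm38.p6), which spans 300 bases around each annotated start. Each motif was searched on both strands, and a gene counted when any of its promoters held it. The core of the classical sterol regulatory element, TCACNCCA, to which SREBPs bind, was found in 2 of the 28 genes (7.14%) and in 4.97% of 27025 genes with a promoter entry. These were Hmgcs1, the gene of cytosolic HMG-CoA synthase, and Srebf2, the gene of SREBP-2 itself. The 100 bases around each match are printed because they hold the element to which the pathway's own factor binds. Capitals mark the element core, the CCAAT box in either orientation and the GC box (GGGCGG or its complement), and each sequence is written in the direction of its gene.

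Hmgcs1 (chr13:119690174-119690273, plus strand): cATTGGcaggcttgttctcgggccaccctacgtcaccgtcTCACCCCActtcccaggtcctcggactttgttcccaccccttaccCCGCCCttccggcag
Srebf2 (chr15:82147067-82147166, plus strand): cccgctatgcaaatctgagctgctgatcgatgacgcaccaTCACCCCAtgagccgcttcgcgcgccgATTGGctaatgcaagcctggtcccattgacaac

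CCAAT boxes, the binding sites of NF-Y, a factor known to act beside SREBPs, were found in 23 of the 28 genes (82.1%). They were found in 41.1% of all genes with a promoter entry and in 43.5% of the 8794 that were well above background on all 5 arrays. The GC box, GGGCGG, was found in 22 of the 28 (78.6%), against 38.2% of all genes and 69.7% of those 8794. Per promoter, of 32851 in all, the shares were 4.36% for the element core, 37.4% for the CCAAT box and 35.7% for the GC box. A CCAAT box lay in the promoter of all 8 sterol genes with an entry, of 5 of 6 mevalonate genes and of 1 of 3 elongation and desaturation genes. The letters are a description of these windows and not a measurement of binding.

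Windows of the same length follow for the genes that lay farthest apart between Hepa1-6 and ES among those with a CCAAT box before the most upstream start. Acacb, Mvd and Mvk were lower in Hepa1-6 and Sc5d and Insig2 higher. The windows show the sequence beside the start of these genes, and none of these 5 windows holds the element core. Genes with large differences that did not meet this condition, such as Me1 and Fdft1, are not shown.

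Acacb (chr5:114165391-114165490, plus strand): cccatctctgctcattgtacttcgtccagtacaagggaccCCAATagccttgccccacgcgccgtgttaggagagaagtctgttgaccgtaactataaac
Mvd (chr8:122443423-122443522, minus strand): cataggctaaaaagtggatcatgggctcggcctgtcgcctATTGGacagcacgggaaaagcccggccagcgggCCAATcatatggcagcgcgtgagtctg
Mvk (chr5:114444169-114444268, plus strand): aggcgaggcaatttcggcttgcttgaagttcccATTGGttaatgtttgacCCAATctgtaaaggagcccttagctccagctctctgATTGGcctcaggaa
Sc5d (chr9:42264301-42264400, minus strand): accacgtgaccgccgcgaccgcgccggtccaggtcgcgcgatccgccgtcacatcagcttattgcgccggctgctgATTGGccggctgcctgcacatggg
Insig2 (chr1:121332590-121332689, minus strand): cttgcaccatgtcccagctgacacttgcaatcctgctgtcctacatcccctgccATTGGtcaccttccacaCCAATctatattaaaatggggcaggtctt

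All 34 genes were well above background on all 5 arrays. They were read by 56 probes, with 16 genes on 1 probe and 18 on more, and the values below come from the probe detected on most arrays and, among those, the brightest. Each level is log2 of the processed signal relative to the 75th percentile of its array, so that levels can be compared between arrays for a gene but not between genes. The scanner software gave these signals an error of 0.14 to 0.17 on the log2 scale, which makes 0.20 to 0.22 for a difference between arrays. The lowest and the median of these errors were both 0.1443, so they hardly varied between genes. Repeated spots had a lower median SD, 0.071 to 0.100 per array. The software error covers the reading of a spot and not the spread between cultures, for which there was no replicate, so no p-value is given. A gene was called higher or lower when it lay past 2-fold. In bulk RNA, fewer cells of a type and less RNA per cell cannot be told apart.

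As for the whole series, the 75th percentiles ran from 1087 in ES to 1456 in Hepa1-6, and 54.6% (Hepa1-6) to 67.6% (EHeD7) of probes were well above background. ES, EHe, EHeD7 and EHeD14 lay on 1 slide and Hepa1-6 on another, so a slide effect and the cell line cannot be told apart. All 7 pluripotency markers with a probe were well above background in ES and in the 3 hybrid arrays, and 2 of them in Hepa1-6. Their summed level, as multiples of the 75th percentile, was 338 (ES), 392 (EHe), 239 (EHeD7), 134 (EHeD14) and 23.5 (Hepa1-6). Each such sum, here and below, is weighted to the brightest probes. These were Dppa5a in EHe, at a level of 7.86, and Klf4 in Hepa1-6, at 4.54. Against EHe, 4 of the 7 pluripotency markers were called lower at day 7 and 5 at day 14, with Pou5f1 and Tdgf1 called at neither day. Of 7 hepatocyte markers, 5 were well above background in Hepa1-6, where their summed level was 202, and 1 to 3 elsewhere, with a sum between 0.258 and 2.88. Alb (serum albumin) and Fgb (fibrinogen) were detected in Hepa1-6 alone, Apoh on no array, and Ahsg was lower in Hepa1-6 than in ES. Of 7 adipocyte markers, Adipoq, which defines fat cells, was on no array well above background, and 4 or 5 of the others were, with sums of 1.56 to 3.42 in ES and the hybrids and 13.8 in Hepa1-6. Of 5 mesenchyme markers, 4 were detected in ES and EHe, 5 in both differentiated hybrids and 2 in Hepa1-6, and of 4 endoderm markers, 3 or 4 in ES and the hybrids and 2 in Hepa1-6. Their sums were still highest in Hepa1-6, at 17.1 beside 13.0 to 15.0 for mesenchyme and 10.6 beside 0.351 to 3.67 for endoderm. There Acta2 was 1.21-fold and Foxa2 75.2-fold above ES, while 3 of 4 mesenchyme markers compared and 2 of 4 endoderm markers were called lower than in ES. The part of these cell identities in the lipid gene values was not tested.

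**Figure D1:**
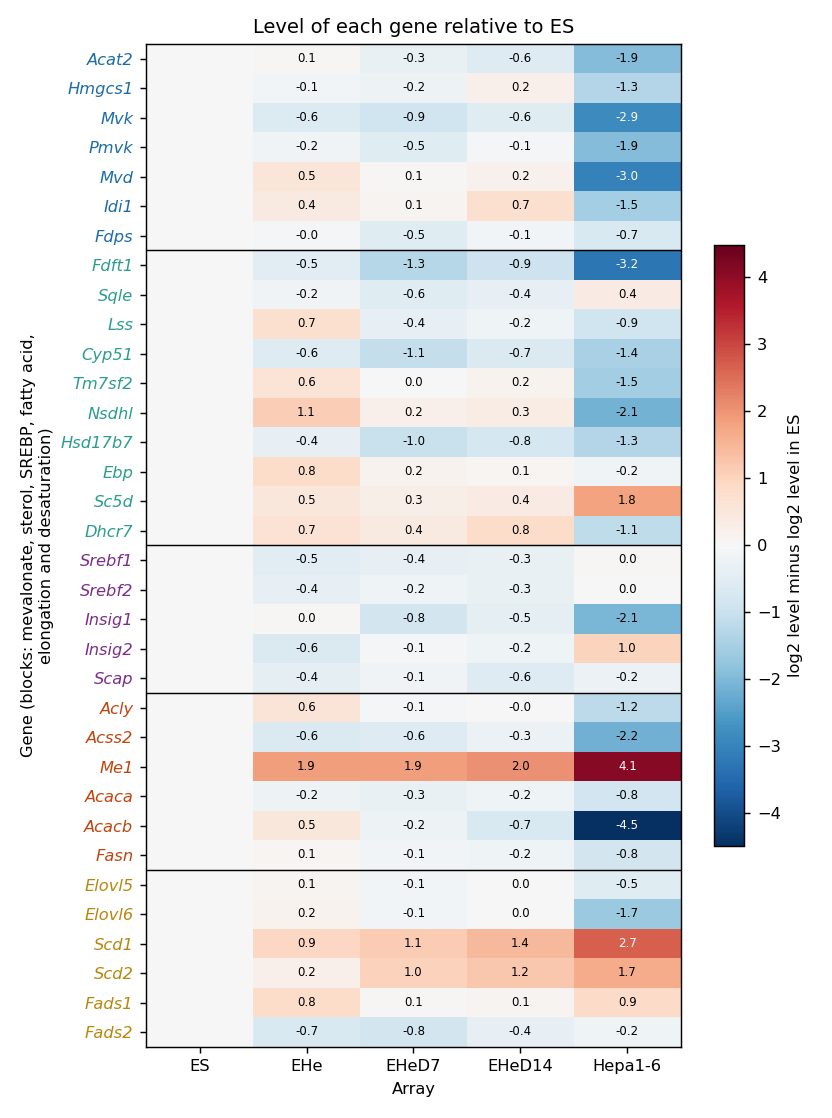
Level of each of the 34 genes relative to its own level in ES, on the log2 scale, for the 5 arrays (columns, 1 array each). Genes are grouped by role, red is higher and blue lower than in ES, and the Hepa1-6 column holds the largest differences, from -4.49 for Acacb to 4.08 for Me1.

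The first question is what fusion with a hepatoma cell did to these genes in undifferentiated cells. In EHe against ES, 2 of the 34 genes were called higher and 0 lower, against 7.35% of all named genes called higher and 10.1% called lower. The median difference of the 34 genes was 0.07 on the log2 scale, beside -0.12 over all named genes. Markers of other cell types moved in the same comparison: all 4 endoderm markers were called lower in EHe, led by Gata6 at 12.9-fold, as were 3 of 4 mesenchyme markers compared, with Pdgfrb at 9.81-fold. Their part in the lipid gene values was not tested.

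Me1, the cytosolic malic enzyme that makes NADPH for lipid synthesis, had levels of -0.84 in ES and 1.04 in EHe, 3.68-fold higher in the hybrid. In Hepa1-6 it stood at 3.24, so that the hybrid lay between its parents. Nsdhl, a dehydrogenase that removes methyl groups from sterol intermediates, had levels of 1.26 in ES and 2.38 in EHe, 2.17-fold higher. Its other 2 probes gave differences of 1.06 and 1.62. Hepa1-6 had -0.86 for Nsdhl, below both, so for this gene the hybrid was outside the range of its parents.

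The other 32 genes lay within 2-fold, in both directions. On the higher side, Scd1, a stearoyl-CoA desaturase, had a ratio of 1.92 to ES and passed 2-fold under normexp and median centring, at 1.05 on the log2 scale in each. Fads1, a desaturase of polyunsaturated fatty acids, stood 1.79-fold, Ebp, a sterol isomerase, 1.75-fold and Lss, lanosterol synthase, 1.64-fold above ES. On the lower side, Fads2, which acts before Fads1 in the same route, stood 1.60-fold, Insig2 1.56-fold, Acss2, which makes acetyl-CoA from acetate, 1.56-fold, Mvk, mevalonate kinase, 1.53-fold, Cyp51, lanosterol demethylase, 1.49-fold and Fdft1, squalene synthase, 1.41-fold below ES. For Cyp51 the other probes had the opposite sign, at 0.09 and 0.19 on the log2 scale. The other Fdft1 probe, well above background in ES alone, gave -2.14 or lower, past 2-fold. By role, the median was 0.55 for the sterol genes, -0.04 for the mevalonate genes and -0.44 for the genes of the SREBPs and their regulators.

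All 22 of the genes that were past 2-fold between Hepa1-6 and ES had a level in EHe nearer to ES than to Hepa1-6. For 5198 named genes with the same property and well above background on all 5 arrays, this share was 85.2%. At day 7 it held for 19 of the 22 genes (86.4%), beside 71.6% of the 5198, with Cyp51, Hsd17b7 and Scd2 nearer to Hepa1-6. At day 14 it held for 18 (81.8%), beside 71.1%, with Hsd17b7, Me1, Scd1 and Scd2 nearer to Hepa1-6. Some levels were too close to the midpoint of the parents to be placed: those of Cyp51 and Me1 in EHe, Me1 and Scd2 at day 7, and Cyp51, Hsd17b7, Me1 and Scd1 at day 14 lay within the error of a difference from it. Me1 at day 14 was 0.0051 past the midpoint. The ES array enters on both sides of this description. The 22 genes were set by the probe used, and other probes of Cyp51 and Dhcr7 stayed inside 2-fold between the parents.

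Few of these genes passed the limit on differentiation. At day 7 against EHe, 0 of the 34 genes were called higher and 1 lower, against 12.8% and 8.52% of all named genes. The median difference was -0.29, beside -0.02 over all named genes. Among named genes well above background on all 5 arrays, as these 34 were, the median was -0.12 and the shares were 9.16% higher and 6.43% lower. Of 5 mesenchyme markers, 3 were higher at day 7, with Col1a1 at 22.1-fold, and 1 of 4 endoderm markers was, and at day 14 these counts were 4 and 3. Their part in these values was not tested. Lss was the gene called, with levels of 0.56 (ES), 1.28 (EHe), 0.18 (EHeD7) and 0.36 (EHeD14). Its fall at day 7 was 2.14-fold, and its other probe gave -0.94, just inside the limit. EHe held its highest level of the 5 arrays, and Hepa1-6 its lowest, at -0.32.

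All 10 sterol genes had a negative difference at day 7, from -1.09 for Lss to -0.23 for Sc5d, with a median of -0.62, and all 10 stayed negative under each other scaling. All 7 mevalonate genes were negative too, from -0.51 to -0.10, with a median of -0.36, and 6 of them after quantile normalization. These differences are small beside the limit, and that of Hmgcs1 lies within the error of a difference. Each of them was taken against the 1 EHe array, so the spot errors of that array enter every value. In EHe the sterol genes had stood above ES by a median of 0.55. At day 7 Tm7sf2, Nsdhl, Ebp, Sc5d and Dhcr7 were at or above their ES levels, and Fdft1, Sqle, Lss, Cyp51 and Hsd17b7 were below theirs.

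At day 14 against EHe, 0 of the 34 genes were called higher and 1 lower, against 13.2% and 9.65% of all named genes. The median difference was -0.11, beside -0.02 over all named genes. Among those well above background on all 5 arrays, the median was -0.09 and the shares were 9.32% higher and 7.28% lower. The gene called lower was Acacb, the acetyl-CoA carboxylase of the mitochondrial surface, whose malonyl-CoA restrains fatty acid oxidation. Its levels were 0.99 (ES), 1.52 (EHe), 0.77 (EHeD7) and 0.32 (EHeD14), a 2.29-fold fall from EHe to day 14. This call was lost when the probes of a gene were averaged, at -0.68 on the log2 scale. The other Acacb probe was dim and by itself gave no difference above the detection limit. The mevalonate genes had a median of 0.06 at day 14 and the sterol genes of -0.43.

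The desaturase Scd2 came closest to a rise. Its levels were 3.88 (ES), 4.12 (EHe), 4.90 (EHeD7), 5.10 (EHeD14) and 5.55 (Hepa1-6), with EHeD14 1.97-fold above EHe. It was called higher at day 14 after quantile normalization. Scd1 had 0.70 (ES), 1.64 (EHe), 1.84 (EHeD7), 2.14 (EHeD14) and 3.39 (Hepa1-6). For both genes the order of the 5 arrays was the same, although EHe and EHeD7 (Scd1), EHeD7 and EHeD14 (Scd2) and ES and EHe (Scd2) differed by about the error of a difference. Scd1 and Scd2 are close paralogs, and cross-hybridisation between their probes was not tested.

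The levels of the 34 genes were also set beside each other over the 4 arrays other than Hepa1-6. The range from the lowest to the highest of these arrays had a median of 0.65 on the log2 scale, and 26 of 34 genes (76.5%) stayed within 2-fold. Among 10912 named genes well above background on all 5 arrays, the median range was 0.79 and 64.0% stayed within 2-fold. The widest ranges were those of Me1, at 2.04, and Scd1, at 1.45, and the narrowest those of Elovl5, at 0.24, Fasn, at 0.27, and Elovl6, at 0.28. Fasn, the fatty acid synthase, had levels of 6.11 (ES), 6.18 (EHe), 6.00 (EHeD7), 5.91 (EHeD14) and 5.29 (Hepa1-6). Its other probe had 0.38, 0.42, -0.16, -0.50 and -1.09 in the same order, with a wider spread.

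**Figure D2:**
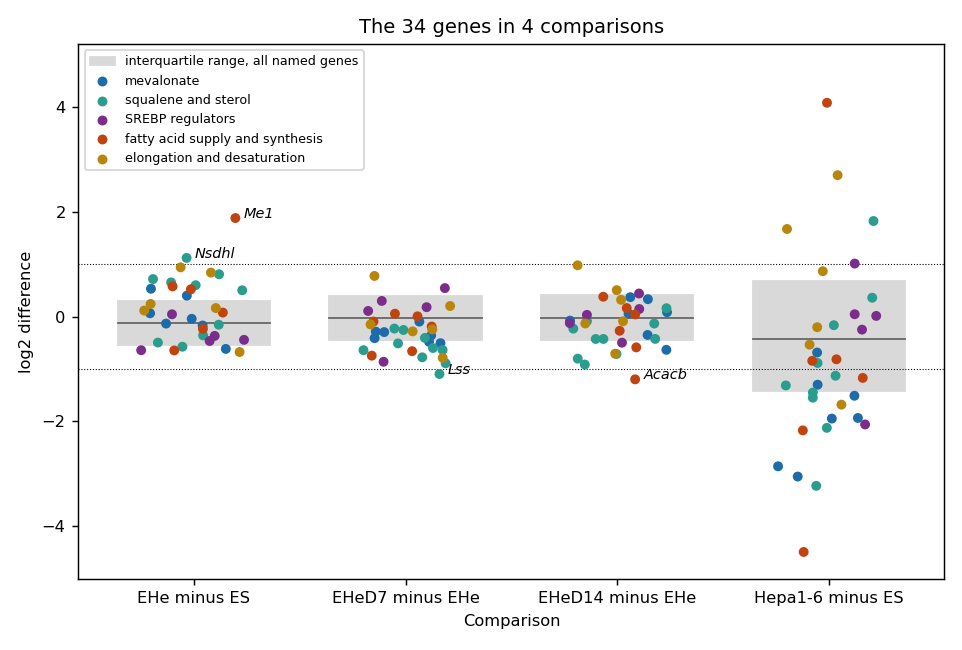
Difference on the log2 scale of each of the 34 genes (points, coloured by role, spread sideways for legibility) in 4 comparisons of 1 array with 1 array. Grey boxes span the interquartile range of all named genes with their median as a line, dotted lines mark 2-fold, and genes past 2-fold are named in the first 3 comparisons. The points of the first 3 comparisons stay within 2-fold except Me1, Nsdhl, Lss and Acacb, while those of Hepa1-6 minus ES run from -4.49 to 4.08.

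Hepa1-6 differed from ES far more than the hybrids did. Of the 34 genes, 5 were called higher and 17 lower in Hepa1-6, against 20.1% and 34.1% of all named genes. The median difference was -1.01, beside -0.42 over all named genes, so the genes lay 0.58 below the median gene. This gap was -0.52 with each array centred on its median and -0.85 after quantile normalization. The counts depend on the scaling: with median centring, 7 genes were higher and 9 lower, beside 34.2% and 19.1% of all named genes. The share of the calls that were higher moved from 22.7% to 43.8%, and the median over all named genes moved from -0.42 to 0.30. Under each of 8 other settings of background, scaling, filter and probes, 9 of the 17 lower genes (Acat2, Mvk, Pmvk, Mvd, Fdft1, Nsdhl, Insig1, Acss2 and Acacb) and 4 of the 5 higher genes (Sc5d, Me1, Scd1 and Scd2) stayed past 2-fold. Among these settings, signals as measured, no filter, detection on all 5 arrays and the series table could not change a value of the 34 genes.

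In the mevalonate pathway, 6 of 7 genes were called lower in Hepa1-6, with a median difference of -1.93 (4 genes and -1.15 with median centring). Mvd, the decarboxylase that yields isopentenyl diphosphate, had levels of 2.81 (ES), 3.34 (EHe), 2.86 (EHeD7), 2.99 (EHeD14) and -0.24 (Hepa1-6). Hepa1-6 stood alone for this gene, 8.28-fold below ES, while the other arrays lay within 0.53 of each other. Mvk had 1.40, 0.79, 0.49, 0.84 and -1.45 in the same order of arrays, 7.23-fold lower in Hepa1-6 than in ES. Its other probe gave -2.02 for this difference.

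The remaining mevalonate genes lay lower by smaller factors. Acat2, which joins acetyl-CoA units at the entry of the pathway, had levels of 0.52, 0.59, 0.18, -0.05 and -1.41, and was 3.82-fold lower in Hepa1-6 than in ES. Pmvk, phosphomevalonate kinase, had 4.23, 4.06, 3.71, 4.15 and 2.29, a 3.85-fold difference, with -1.89 from its other probe. In both genes ES and the hybrids lay within 0.63 of each other and Hepa1-6 lay apart. Idi1, which interconverts the isoprenoid diphosphates, was 2.85-fold lower and Hmgcs1 2.46-fold lower, and the other probes of these genes gave -1.61 and -1.46. Fdps, farnesyl diphosphate synthase, was the exception at 1.61-fold, with levels of 4.02, 3.98, 3.47, 3.90 and 3.33.

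Of the 10 genes from squalene to cholesterol, 6 were called lower and 1 higher in Hepa1-6 than in ES, with a median difference of -1.22 (2 lower, 2 higher and -0.44 with median centring). Fdft1, the first enzyme committed to sterols, had levels of 4.93 (ES), 4.43 (EHe), 3.65 (EHeD7), 4.0 (EHeD14) and 1.70 (Hepa1-6). It was 9.37-fold lower in Hepa1-6, and its other probe was well above background in ES alone. Nsdhl, with levels given above, was 4.35-fold lower, and its other probes gave -2.18 and -2.03. The 3 probes of this gene thus differed by less than the error of a difference.

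Sqle, squalene epoxidase, which follows Fdft1 and is a known rate-limiting step, did not move with it. Its levels were 4.06 (ES), 3.91 (EHe), 3.50 (EHeD7), 3.68 (EHeD14) and 4.43 (Hepa1-6), which was 1.28-fold above ES and held the highest level of the 5. With median centring Sqle was called higher in Hepa1-6 than in ES, at 1.14 on the log2 scale, and it was read by 1 probe. Tm7sf2, a sterol reductase, was 2.92-fold lower in Hepa1-6 than in ES and Hsd17b7, a sterol ketone reductase, 2.48-fold. Cyp51 was 2.73-fold lower and Dhcr7, which makes cholesterol in the last step of its branch, 2.18-fold. Other probes of these last genes stayed inside 2-fold, with -0.26 and -0.30 for Cyp51 and -0.47 for Dhcr7. Lss (1.85-fold lower) and Ebp (1.12-fold lower) were not called.

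Sc5d, the desaturase that acts just before Dhcr7, was the sterol gene called higher. It had levels of 1.12 (ES), 1.62 (EHe), 1.40 (EHeD7), 1.49 (EHeD14) and 2.94 (Hepa1-6). Hepa1-6 lay 3.54-fold above ES and the other 4 arrays within 0.50 of each other. On the probes used, successive steps of the route stood on opposite sides of ES in Hepa1-6, with Sc5d higher and Dhcr7 lower. The Dhcr7 call was lost under normexp, median centring and averaging of probes, with values down to -0.34 in size but of the same sign.

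**Figure D3:**
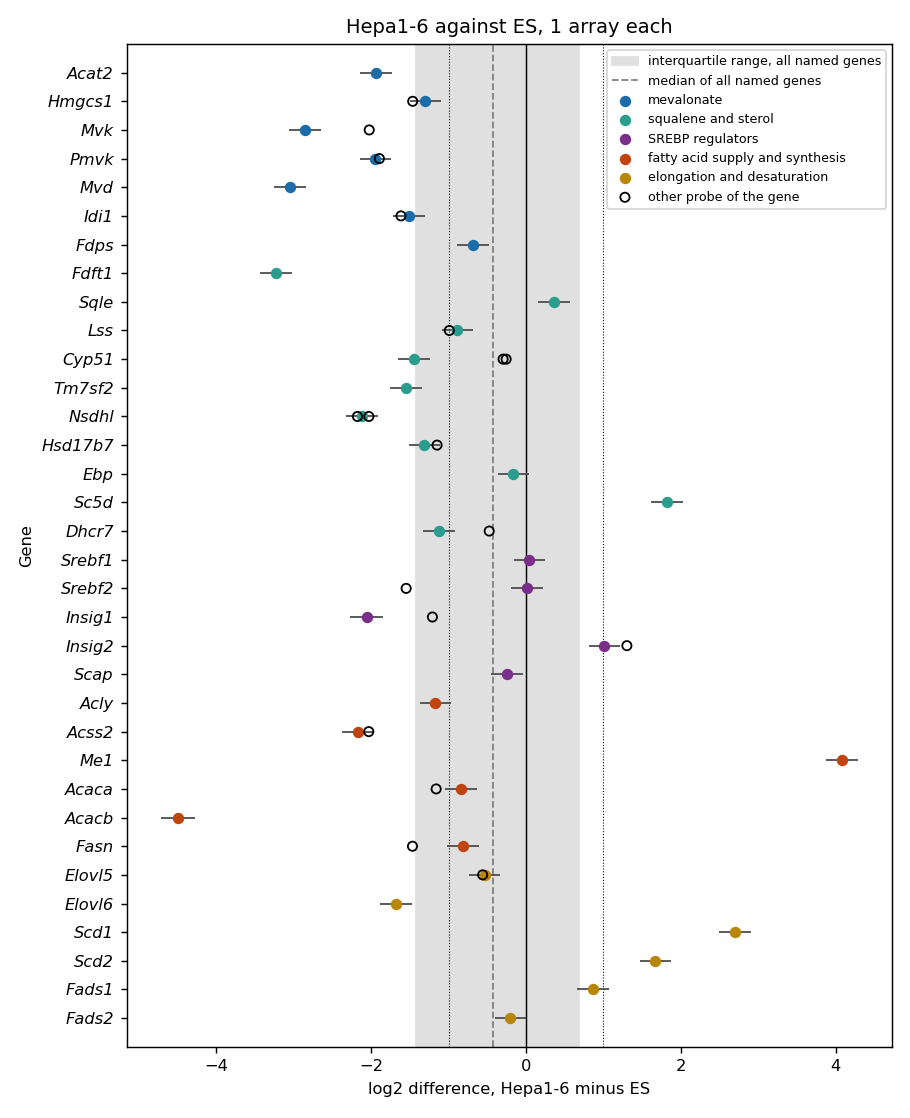
Difference between Hepa1-6 and ES on the log2 scale for each of the 34 genes, ordered and coloured by role. Filled points are the probe used, with bars of 1 software error of the difference, open circles are other probes well above background on all 5 arrays, the grey band spans the interquartile range of all named genes (-1.42 to 0.68) and dotted lines mark 2-fold. Of the 17 mevalonate and sterol genes, 12 lie left of the 2-fold line (6 with median centring), while Sc5d, Insig2, Me1, Scd1 and Scd2 lie right of the line for higher genes.

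Among the regulators, the genes of the SREBPs themselves differed little between Hepa1-6 and ES, and with median centring the median of the 5 genes moved from 0.01 to 0.80. Srebf1, the gene of SREBP-1, had levels of 4.92 (ES), 4.45 (EHe), 4.56 (EHeD7), 4.60 (EHeD14) and 4.96 (Hepa1-6), and Scap had 3.76, 3.32, 3.62, 3.20 and 3.52. Srebf2 had 1.16, 0.79, 0.97, 0.82 and 1.17, a 1.01-fold difference between Hepa1-6 and ES. Its other probe disagreed, with Hepa1-6 lower than ES by -1.55 on the log2 scale, so the direction for Srebf2 depends on the probe. The array reads transcripts and not the cutting of the SREBP proteins.

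The INSIG genes moved in opposite directions. Insig1, itself a known SREBP target, had levels of -0.84 (ES), -0.80 (EHe), -1.66 (EHeD7), -1.29 (EHeD14) and -2.90 (Hepa1-6), 4.16-fold lower in Hepa1-6 than in ES. Insig2 had 1.52, 0.88, 1.43, 1.33 and 2.54, 2.02-fold higher and so at the limit. The other probes gave -1.21 for Insig1 and 1.30 for Insig2, on the same sides. Under median centring Insig1 stayed past 2-fold lower and Insig2 past 2-fold higher, and after quantile normalization Insig2 fell just inside the limit at 0.97.

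Of the 6 genes that supply or build fatty acids, 1 was called higher and 3 lower in Hepa1-6 than in ES, with a median difference of -1.01 (2 lower, 1 higher and -0.22 with median centring). Acacb had the widest difference of the 34 genes, with -3.50 in Hepa1-6 against 0.99 in ES, 22.4-fold lower, on 1 usable probe. Acaca, the cytosolic carboxylase that feeds fatty acid synthesis, had 0.04, -0.19, -0.28, -0.15 and -0.80 and was 1.79-fold lower. Another Acaca probe detected on all 5 arrays gave -1.16 for Hepa1-6 against ES, past 2-fold lower. Acacb in Hepa1-6 lay below every other array by at least 3.81 on the log2 scale. Acss2 was 4.50-fold lower, with -2.03 from its other probe, and Acly, which makes acetyl-CoA from citrate, 2.25-fold lower. Fasn was 1.76-fold lower on the probe used and -1.47 on the log2 scale by its other probe, and averaging the probes called it lower, at -1.14.

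Me1 was the gene farthest above ES, 16.9-fold higher in Hepa1-6. Its levels of -0.84 (ES), 1.04 (EHe), 1.05 (EHeD7), 1.20 (EHeD14) and 3.24 (Hepa1-6) formed 3 separate heights, with the hybrids within 0.16 of each other. Me1 was read by 1 probe.

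In elongation and desaturation, 2 of 6 genes were called higher and 1 lower, with a median difference of 0.33 (3 higher, 0 lower and 1.12 with median centring). Scd1 was 6.49-fold and Scd2 3.19-fold higher in Hepa1-6 than in ES. Elovl6, which lengthens palmitate to stearate, the substrate of these desaturases, had levels of 3.17 (ES), 3.34 (EHe), 3.05 (EHeD7), 3.20 (EHeD14) and 1.49 (Hepa1-6), 3.20-fold lower. Elovl5, an elongase of polyunsaturated fatty acids, was 1.45-fold lower, Fads1 1.82-fold higher and Fads2 1.15-fold lower.

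**Figure D4:**
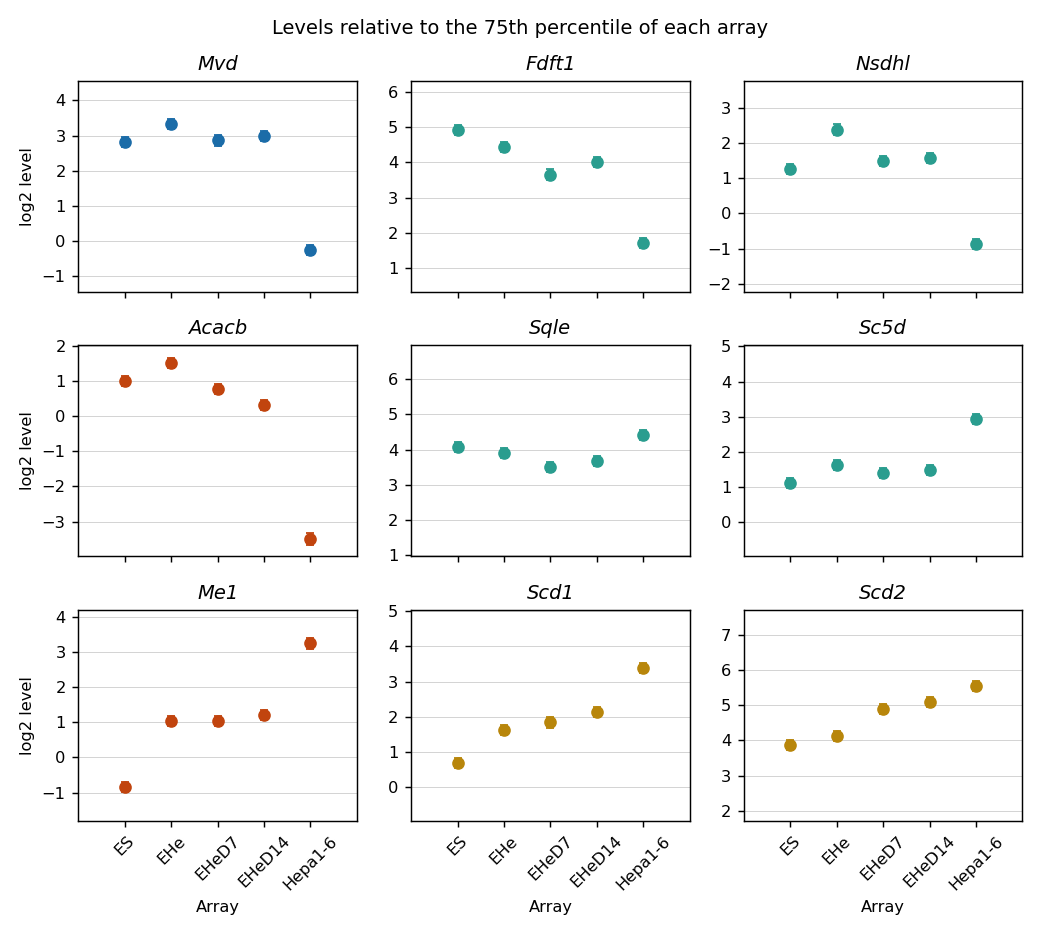
Level of 9 genes on each of the 5 arrays (1 array per condition), as log2 of the processed signal relative to the array's 75th percentile, with bars of 1 software spot error and a vertical axis of the same length in every panel. Mvd, Fdft1, Nsdhl and Acacb are lowest in Hepa1-6, and Sqle, Sc5d, Me1, Scd1 and Scd2 are highest there, with Sqle within 2-fold over the 5 arrays. Me1 is higher in the 3 hybrid arrays than in ES.

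Set against each of the other 4 arrays in turn, Hepa1-6 was past 2-fold higher in 4 genes and past 2-fold lower in 15, against 12.7% and 17.4% of all named genes. The 4 were Sc5d, Insig2, Me1 and Scd1. The 15 were Acat2, Hmgcs1, Mvk, Pmvk, Mvd, Idi1, Fdft1, Tm7sf2, Nsdhl, Dhcr7, Insig1, Acly, Acss2, Acacb and Elovl6. With median centring 6 genes were higher and 5 lower, beside 23.75% and 9.41% of all named genes. Of the calls, the share that was higher moved from 21.1% to 54.5%.

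The last comparison asks how far the differentiated hybrid stood from its hepatoma parent. In EHeD14 against Hepa1-6, which were both kept in high glucose and fetal calf serum, 15 of the 34 genes were called higher and 4 lower. Of all named genes, 28.5% were called higher and 20.2% lower. The median difference was 0.67, beside 0.22 over all named genes. With median centring 9 genes were higher and 10 lower, beside 15.8% and 37.9% of all named genes. The share of calls that were higher moved from 78.9% to 47.4% and the median over all named genes from 0.22 to -0.54. The 34 genes lay 0.45 above the median gene, and 0.38 above it with median centring.

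All 6 mevalonate genes other than Fdps were called higher in EHeD14, led by Mvd at 9.40-fold, Mvk at 4.91-fold and Idi1 at 4.73-fold. Of the sterol genes, Nsdhl was 5.42-fold, Fdft1 4.95-fold, Dhcr7 3.84-fold and Tm7sf2 3.30-fold higher, and Sc5d was 2.74-fold lower. Cyp51 (1.73-fold higher) and Hsd17b7 (1.44-fold higher) were not called. The sterol genes had a median difference of 0.74, which turned to -0.09 with median centring, and the mevalonate genes of 1.86, which was then 1.03.

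In the fatty acid branch Acacb was 14.1-fold, Acss2 3.75-fold, Elovl6 3.28-fold and Acly 2.23-fold higher in EHeD14 than in Hepa1-6. Me1 was 4.10-fold and Scd1 2.38-fold lower, and among the regulators Insig1 was 3.04-fold higher and Insig2 2.32-fold lower. Of the 15 higher and 4 lower calls, 9 and 4 stayed past 2-fold under each of the 8 other settings, some of which could not change them, as stated above. Those 9 were Mvk, Pmvk, Mvd, Idi1, Fdft1, Nsdhl, Dhcr7, Acss2 and Acacb.

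Other probes of the same genes were set beside these calls. In Hepa1-6 against ES, 15 other probes read 13 of the called genes, of which 14 had the same sign and 11 were past 2-fold on the same side. In EHeD14 against Hepa1-6, 11 other probes read 10 called genes, and 10 were past 2-fold on the same side. The largest gap between probes was in Acacb, whose other probe was dim and well above background on 3 of the 5 arrays.

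Neighbouring lipid pathways were described with 48 further genes, of which 47 had a probe. In EHe against ES, 3 were higher and 5 lower of 45 compared, beside 7.35% and 10.1% of all named genes. At day 7 against EHe, 8 were higher and 4 lower of 46, beside 12.8% and 8.52% of all named genes. At day 14, 7 were higher and 5 lower, beside 13.2% and 9.65%. In Hepa1-6 against ES, 17 were higher and 10 lower of 46, and in EHeD14 against Hepa1-6, 9 were higher and 14 lower. Over all named genes the shares were 20.1% higher and 34.1% lower in Hepa1-6 against ES. They were 28.5% higher and 20.2% lower in EHeD14 against Hepa1-6. With median centring, Hepa1-6 had 23 of the 46 above ES and 4 below it, beside 34.2% and 19.1% of all named genes. In EHeD14 against Hepa1-6, 3 were then higher and 27 lower, beside 15.8% and 37.9%. At each day against EHe, 4 were then higher and 6 lower. The shares of all named genes were then 10.86% and 11.44% at day 7, and 11.37% and 12.35% at day 14. The counts per short list below are to be read beside these shares, and genes past 3-fold are named.

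Of 10 genes of cholesterol transport, storage and sensing, 4 were higher and 1 lower at day 7 than in EHe, 3 higher and 1 lower at day 14, and 4 higher and 1 lower in Hepa1-6 than in ES. Abca1, which exports cholesterol from cells, had levels of -1.67 (ES), -0.82 (EHe), -3.43 (EHeD7), -5.02 (EHeD14) and 0.34 (Hepa1-6). It was 6.11-fold lower at day 7 and 18.4-fold lower at day 14 than in EHe, and 4.02-fold higher in Hepa1-6 than in ES. EHeD14 lay 41.0-fold below Hepa1-6. The EHeD14 level was near the lowest signal well above background on that array (-5.55), so the folds that use it are imprecise.

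Soat1, which esterifies cholesterol for storage, had 0.33, 0.20, 2.16, 1.93 and -3.98 in the same order. It lay 3.87-fold above EHe at day 7, 3.31-fold above it at day 14, and 60.0-fold above Hepa1-6 in EHeD14. In Hepa1-6 it was 19.8-fold lower than in ES. For both genes the differentiated hybrids and Hepa1-6 lay at opposite ends of the 5 arrays.

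Nr1h3, the gene of the oxysterol receptor LXR alpha, was not well above background in EHe. It was at least 6.20-fold lower there than in ES, at least 3.53-fold higher at day 7 and at least 3.65-fold higher at day 14. Hepa1-6 was 3.39-fold above ES and EHeD14 5.76-fold below Hepa1-6. Npc1, which releases cholesterol from lysosomes, stood 3.19-fold above ES in Hepa1-6 and was 3.69-fold lower in EHeD14 than in Hepa1-6.

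Of 9 genes of fatty acid activation and other elongases compared, Hepa1-6 had 6 above and 1 below ES, and 1 was higher and 1 lower at day 14 than in EHe. The acyl-CoA synthetases Acsl5 and Acsl4 were 25.2-fold and 12.8-fold higher in Hepa1-6 than in ES. The elongases of other chain lengths did not share one direction, with Elovl7 10.7-fold and Elovl1 4.76-fold higher and Elovl2 6.89-fold lower. In EHeD14, Acsl5 was 13.2-fold, Elovl1 3.91-fold and Elovl7 3.79-fold below Hepa1-6 and Elovl2 8.22-fold above it.

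Of 11 genes of fatty acid oxidation, Hepa1-6 had 4 above and 5 below ES, and at each day of differentiation 0 were higher and 2 lower than in EHe. Cpt1a, which admits fatty acids to mitochondria, had levels of 3.19 (ES), 3.18 (EHe), 1.01 (EHeD7), 0.90 (EHeD14) and 1.69 (Hepa1-6). ES and EHe lay together and the differentiated hybrids together, 4.50-fold lower at day 7 and 4.87-fold lower at day 14 than EHe. Slc25a20, the carnitine carrier of the mitochondrial membrane, was 3.07-fold lower in EHe and 13.0-fold lower in Hepa1-6 than in ES.

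Of the dehydrogenases, Acadvl was 3.09-fold lower in EHe than in ES, and Acadl was 9.26-fold higher in Hepa1-6 than in ES. Hadhb, a thiolase of mitochondrial oxidation, was 3.21-fold lower in Hepa1-6 than in ES. EHeD14 lay 4.09-fold below Hepa1-6 for the coactivator Ppargc1a.

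Of 5 genes of glycerolipid synthesis, 2 were higher and 0 lower at day 14 than in EHe, and in Hepa1-6 there were 0 above and 1 below ES, all within 3-fold. Of 7 isoprenoid branch genes, 1 was higher and 1 lower in Hepa1-6 than in ES, and Fnta, a subunit of the protein prenyltransferases, was 3.26-fold higher in EHeD14 than in Hepa1-6.

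Of 4 lipogenic transcription factors and cofactors, Hepa1-6 had 2 above and 1 below ES, and 1 was higher and 1 lower at day 14 than in EHe. Thrsp, a gene induced with lipogenesis, was 5.39-fold lower at day 7, 5.88-fold lower at day 14, and at least 22.3-fold lower in Hepa1-6 than in ES. Pparg was 16.9-fold and Nr1h4, the gene of the bile acid receptor FXR, 22.6-fold higher in Hepa1-6 than in ES. EHeD14 lay 18.0-fold below Hepa1-6 for Pparg, 36.9-fold below for Nr1h4 and 6.24-fold above for Mlxipl, the gene of the glucose-responsive factor ChREBP.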

How the data were processed

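Expression was measured on 5 Agilent mouse arrays (ES, EHe, EHeD7, EHeD14, Hepa1-6; 1 array per condition), read in 1 channel (Cy3 per the labels, Cy5 per the paper's methods). The authors deposited the scanner tables of Agilent Feature Extraction 10.7.3.1 (submitters' processing notes). The deposited processed signal is an intensity, corrected for background and detrended in that software and not normalized between arrays. The deposited series table holds the same linear processed signal, uncentred (largest relative difference 0), with column medians of 84.98 (ES), 92.06 (EHe), 107.2 (EHeD7), 106.7 (EHeD14) and 63.96 (Hepa1-6).

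Of 45018 spots per array, control spots and 73 to 174 outlier spots were removed, and 0 were saturated. The log2 signal was taken relative to the 75th percentile of its array and averaged per probe. Of 41174 probes, 26888 were named by RefSeq accession and 14286 were not named here. A gene was read by the probe well above background on most arrays, then with the highest mean. A dim side was raised to the lowest signal well above background on its array, and such folds are given as "at least". Repeated spots had a median SD of 0.071 to 0.100 per array on the log2 scale. The number of arrays limits the precision.

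No test was made with 1 array per condition, and calls were set beside the share of all named genes past 2-fold. Alternatives were a 3-fold limit (the fold of the study), normexp on the median signal and background (offset 50), quantile normalization, median centring, signals as measured, no filter, a filter for detection on all 5 arrays, averaging over probes and the series table. The members, the other gene lists and the markers were chosen with earlier results of these data known. All members were named, and further pathway genes where past 3-fold, except 1 that is not reported here. The comparison with each of the other 4 arrays and median centring of the further pathway genes were added after seeing the data. The procedure was tested on simulated data. Promoters came from RefSeq (GRCm38.p6). Computations used R 4.3.3 with limma 3.58.1 and Python 3.11.15 with pandas 2.3.3, numpy 2.4.6 and matplotlib 3.10.9.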

Additional observations from a re-analysis of the deposited data

How the results depend on the processing

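No paired analysis was possible because no condition was repeated. Of 148 counts and medians over the 34 genes under an alternative, 123 stayed within tolerance (1.5 times for a count and 0.08, the SD of repeated spots, for a median) and 25 moved. Signals as measured, no filter, detection on all 5 arrays and the series table moved none of the 6 comparisons' counts and medians. They could not do so, because all 34 genes were well above background on all 5 arrays and the series table holds the same signal. The values that stayed within tolerance under these settings therefore say nothing about stability. The comparison with each of the other 4 arrays and its alternatives were chosen after seeing the data. The cause of a move was not tested, except that a 3-fold limit calls fewer genes by construction.

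At 3-fold, the counts that moved were 1 higher in EHe against ES, 0 lower at day 7 and 0 lower at day 14, 10 lower in Hepa1-6 against ES, 1 lower in EHeD14 against Hepa1-6, and 1 higher and 5 lower in Hepa1-6 against each of the other 4 arrays. Normexp gave a median of -0.88 for Hepa1-6 against ES. Quantile normalization gave a median of -0.20 at day 7 and 1 gene higher at day 14, Scd2. Averaging the probes of a gene gave 1 lower in EHe against ES, Fdft1, 3 lower at day 7, 0 lower at day 14 and a median of -0.91 for Hepa1-6 against ES.

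Median centring moved the most values. Its medians were 0.18 for EHe against ES, -0.47 at day 7, -0.26 at day 14, -0.22 for Hepa1-6 against ES and -0.16 for EHeD14 against Hepa1-6, the last with a changed sign. It called 3 lower at day 7, 2 lower at day 14, 9 lower in Hepa1-6 against ES, 9 higher and 10 lower in EHeD14 against Hepa1-6, and 5 lower in Hepa1-6 against each other array. Of the values of single genes, 1008 stayed within tolerance, 352 moved and 0 called values changed sign. The 1008 include all 170 values of each setting that could not move them. With 1 array per condition the spread between cultures is unknown, and for Hepa1-6 the slide, the medium and the cells cannot be told apart.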
